A study of Mus musculus with 18 samples.

Results

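Regional gene expression was compared within the brains of mice that lack Aldh5a1, as the difference between hippocampus and cortex of the same animal. The comparison rests on 6 of the 18 arrays of the study: the 3 arrays titled as Aldh5a1-/- hippocampus and the 3 titled as Aldh5a1-/- cortex, joined by the animal number in the title (3363, 3389 and 3403). The genotype is called KO here. The other 12 arrays hold KO cerebellum and the hippocampus, cerebellum and cortex of 3 wild-type animals (WT, numbers 3396, 3405 and 3406). The labels give no age, sex, strain or treatment for any animal, and no feature other than Aldh5a1 status separates the genotypes in them. Each array was hybridised with total RNA of whole dissected tissue, so a lower signal for a gene can mean fewer cells that express it or less of its RNA in each cell, and these cannot be told apart.

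The product of Aldh5a1, succinate semialdehyde dehydrogenase, oxidises the last aldehyde on the route by which mitochondria degrade the inhibitory transmitter GABA. Mice without it accumulate GABA and gamma-hydroxybutyrate and have seizures. The hippocampus is a folded sheet of archicortex in which granule cells of the dentate gyrus and pyramidal cells of the CA fields lie in dense layers. The neocortex has layers of projection neurons with different targets, mixed with interneurons. Both are forebrain structures built largely from glutamatergic neurons, so the genes that separate them include patterning factors, guidance receptors, ion channels and transmitter receptors of particular neuron classes. The question is which of these regional differences exist in the KO brain.

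Expression is given as signal, the deposited intensity of a probe set on a linear scale, and as log2 differences, hippocampus minus cortex, with limma's standard error. The deposited values have the same trimmed mean on every array. Signals under a floor of 9.46 were raised to it before log2, so a difference that involves floored signals understates the change, and where all 3 arrays of a region were under the floor the fold is given as a lower bound. A probe set is said to have risen or fallen, or to be higher or lower by the test, at an adjusted p under 0.05 in limma with the animal as a block. Of 12488 probe sets, 8382 passed a filter on low signals and were tested. Aldh5a1 was assigned 0 probe sets, so the genotype was taken from the titles. All 18 arrays lay closest to the arrays of the region in their title, while the source label reads hippocampus for every sample. The 6 arrays had median signals of 60.9 to 64.8, and correlated at r of 0.962 to 0.967 among KO hippocampi, 0.957 to 0.964 among KO cortices and 0.925 to 0.938 between the regions, across probe sets.

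One measure of RNA quality moved with the region. The ratio of 3' to 5' actin signal on the control probe sets was 1.31, 1.27 and 1.40 in hippocampus of animals 3363, 3389 and 3403 and 1.88, 1.64 and 1.79 in cortex. The regions did not overlap in this ratio, at 1.33 ± 0.0666 against 1.77 ± 0.121 (SD, n = 3). The same ratio for Gapdh was 0.844 ± 0.0547 and 0.804 ± 0.00755, and overlapped. The part of RNA quality in the regional differences was not tested.

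In KO hippocampus 578 probe sets were higher than in KO cortex (6.9% of those tested) and 631 were lower (7.53%), together 14.4%. The higher ones named 499 genes and the lower ones 525, with 3 genes (Napb, Sbno1 and Wdr26) called in both directions by different probe sets. Most differences were modest: the median fold among called probe sets was 1.64, and 158 higher and 180 lower ones reached 2-fold, 22 and 31 of them 4-fold. The sign was the same in all 3 animals for 1196 of the 1209 (98.9%), and the 3 hippocampal signals lay wholly apart from the 3 cortical ones for 1138 (94.1%), where 16.1% of all tested probe sets lay apart with hippocampus higher and 15.4% with hippocampus lower. The differences of single animals correlated pairwise at r of 0.468 to 0.555 across probe sets. The count depended on each KO animal: 334 higher and 319 lower without 3363, 268 and 306 without 3389, and 223 and 293 without 3403.

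The 15 genes with the largest increase in hippocampus had log2 differences of 2.16 to 3.34. They, and the genes of largest decrease below, were taken from called genes with the same sign in all animals and no overlap of regions. That none of these genes overlaps between the regions therefore follows from the choice. Signals are listed for animals 3363, 3389 and 3403, in that order, here and below. Pkp2, which encodes the desmosome plaque protein plakophilin 2, read 88.4, 126 and 78.8 in hippocampus and 3.34, 3.53 and 2.50 in cortex, so that all cortical arrays were under the floor and the gene was at least 10.1-fold higher in hippocampus (log2 3.34 ± 0.34 SE, adjusted p = 1.71e-05). Dsp, which encodes desmoplakin of the same junction and marks dentate granule cells in the mouse brain, read 240, 242 and 207 in hippocampus and 37.2, 43.5 and 29.6 in cortex, a 6.31-fold difference (2.66 ± 0.20, adjusted p = 2.25e-06). Both genes encode desmosomal proteins, and a further Pkp2 probe set was also higher (2.17). Rasd1, a small GTPase induced by glucocorticoids, read 247, 338 and 309 in hippocampus and 30.4, 47.2 and 31.5 in cortex, 8.30-fold higher (3.05 ± 0.18, adjusted p = 4.93e-07). Lpl, the lipoprotein lipase that releases fatty acids from triglycerides, read 136, 246 and 191 against 23.0, 16.2 and 36.5, 7.78-fold higher (2.96 ± 0.35, adjusted p = 7.95e-05). Its widest gap was in animal 3389, and a further Lpl probe set was higher by 1.98.

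Several of the largest differences were in genes known from dentate granule or pyramidal neurons. Lct, the lactase gene, whose transcript is found in dentate granule cells of the mouse, read 175, 160.1 and 124 in hippocampus and 16.1, 26.1 and 22.2 in cortex (7.20-fold). Nnat, which encodes the imprinted membrane proteolipid neuronatin, read 1918, 3085 and 2407 against 418, 439 and 329 (6.18-fold). Neurod6, a transcription factor of pyramidal neurons, read 545, 473 and 527 against 88.8, 86.1 and 121 (5.27-fold). In all 3 genes the lowest hippocampal signal was more than 3 times the highest cortical one. Nrp1, a receptor for semaphorins and VEGF, read 327, 289 and 287 against 52.1, 60.1 and 60.8 (5.22-fold), and its other probe set differed by 1.92. Doc2b, a calcium sensor of vesicle fusion, read 142, 136 and 133 in hippocampus, while its cortical signals spread from 14.9 to 50.5.

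The rest of the 15 largest increases were dimmer. Sox1, a transcription factor of neural progenitors, read 53.2, 53.9 and 51.6 in hippocampus and 9.999, 14.0 and 8.46 in cortex. Hrk, which encodes a BH3-only activator of apoptosis, read 45.9, 48.9 and 56.0 against 12.7, 4.89 and 5.35, and Popdc3, a cyclic AMP-binding membrane protein, read 53.4, 50.01 and 67.1 against 17.3, 6.60 and 2.17. The cortical signals of these genes were at most 17.3, several of them under the floor, with log2 differences of 2.26 to 2.28. For Tdo2, tryptophan dioxygenase, the probe set with 63.0, 55.2 and 53.4 in hippocampus against 8.07, 10.9 and 19.99 in cortex rose (2.16), and the other did not pass (0.49, adjusted p = 0.336). The T-cell kinase gene Zap70 (2.34) and the MHC class I gene H2-K1 (2.47), which has near-identical paralogs, likewise had further probe sets that did not pass: 0.16 for Zap70 and -0.32 for H2-K1, of which a further probe set rose by 0.55.

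The 15 genes with the largest decrease in hippocampus had log2 differences of -4.43 to -2.09. Meg3, an imprinted long non-coding RNA, read 24.8, 163 and 130.3 in hippocampus and 2276, 1791 and 1280 in cortex, and was 21.5-fold lower in hippocampus (log2 -4.43 ± 0.50, adjusted p = 4.52e-05). Animal 3363 had the lowest hippocampal and the highest cortical signal, and without it the difference was 10.4-fold (-3.38). A second Meg3 probe set was lower (-1.998). Mef2c, a transcription factor of cortical excitatory neurons and of activity-dependent synapse control, read 94.1, 74.2 and 96.2 against 702, 622 and 650.3 (-2.91 ± 0.22, adjusted p = 2.10e-06). All 4 Mef2c probe sets were lower, the others by -1.90, -2.37 and -2.57.

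Pdyn, the precursor of the opioid dynorphin, read 11.6, 7.32 and 27.3 in hippocampus and 124, 120.3 and 99.2 in cortex on the probe set with the lowest p (-2.99), while its brighter probe set did not pass (-0.47, adjusted p = 0.264). Kcnh1, a voltage-gated potassium channel of the ether-a-go-go family, read 9.46, 12.1 and 4.98 against 80.3, 80.7 and 67.9 (-2.89). Cacna1g, a low-voltage-activated T-type calcium channel, read 9.84, 13.4 and 15.1 against 61.1, 51.6 and 62.4 (-2.21). In these genes no hippocampal signal was above 27.3 and no cortical one below 51.6. Crhr1, the receptor for corticotropin-releasing hormone, read 25.1, 35.9 and 41.0 against 154, 154 and 134 (-2.14 ± 0.16, adjusted p = 2.25e-06). Arpp19, a cyclic AMP-regulated inhibitor of protein phosphatase 2A, read 118, 91.6 and 151 against 478, 468 and 561 (-2.09), and its other probe set was lower by 0.77.

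Xrn1, the cytoplasmic 5' to 3' exonuclease of mRNA decay, had signals of 3.09, 9.40 and 2.41 in hippocampus, all under the floor, and of 95.6, 70.8 and 108 in cortex, so it was at least 9.52-fold lower. The amylase gene Amy1, a member of a multicopy family, was likewise under the floor in all hippocampi and at least 8.45-fold lower. Both genes were lower in hippocampus in 3 of 3 animals, which the choice of these genes required. Sinhcaf, a subunit of the SIN3 histone deacetylase complex, read 37.1, 35.0 and 33.3 against 212, 175 and 180 (-2.42), and Snhg11, a small nucleolar RNA host gene, read 92.6, 180 and 145 against 871, 607 and 701 (-2.42). Tnnc1, a slow-muscle and cardiac troponin, was lower by 2.75, Dtl, an adaptor of the CUL4 ubiquitin ligase, by 2.12 and Clasrp, a splicing regulator, by 2.12. Irs2, the insulin receptor substrate, read 27.9, 31.8 and 15.9 against 133, 87.3 and 97.8 (-2.11, adjusted p = 0.00994), but did not pass without animal 3363 (adjusted p = 0.0694) or 3403 (adjusted p = 0.0851). Of the 30 genes with the largest differences, it was the only one lost when any of the 6 animals was left out, and all 30 passed on the 6 KO arrays alone.

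**Figure D1:**
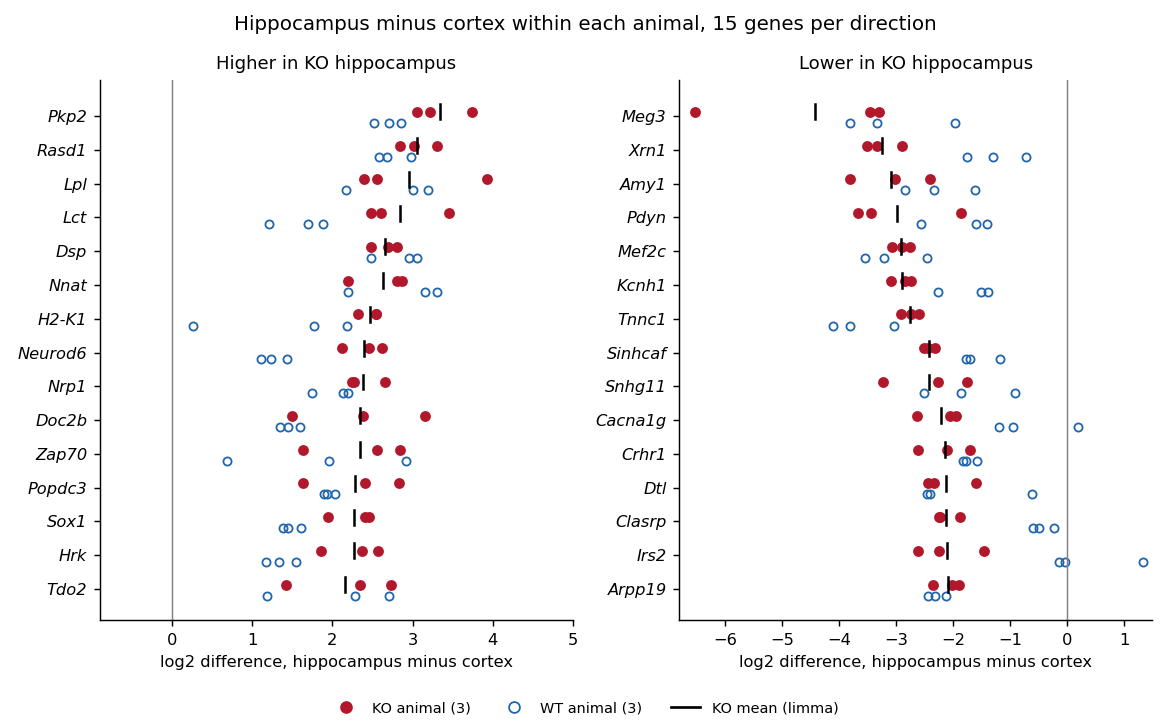
Difference between hippocampus and cortex within each animal for the 15 genes with the largest increase (left) and the 15 with the largest decrease (right) in KO, on a log2 scale. Filled circles are the 3 KO animals, open circles the 3 WT animals and bars limma's KO mean. All KO circles of a gene lie on the same side of 0, which the choice of genes required, and the Meg3 circle of animal 3363 lies farthest out.

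The labelled regions were checked against marker lists, 1 probe set per gene, the brightest, here and in the lists below. For Rprm, Penk, Pvalb, Cldn11, Aqp4, Tie1, Kcnd2 and Hcn2, which passed on that probe set, a further one had the same sign and did not pass. Of 16 measured hippocampal principal neuron genes, 11 were higher in KO hippocampus and 0 were lower, with a median log2 difference of 1.25, where the median over all tested probe sets was 0.03. The share called was 68.8%, against 14.4% of all tested probe sets. Besides Lct, Dsp, Nnat and Tdo2, the higher members were Zbtb20, a repressor that specifies CA1 (1.82), Prox1, the fate determinant of dentate granule cells (1.75), the kinase gene Ptk2b (1.33), the sialyltransferase gene St6galnac5 (1.30), Pou3f1 (1.21), Wfs1, an endoplasmic reticulum protein of CA1 (1.09), and Rgs14, a G-protein regulator of CA2 (0.86). Calb1, Neurod1, Lef1, Mas1 and Bok did not pass (-0.20 to 0.59). The summed signal of the 16 genes was 8070 to 8990 in the hippocampi and 3340 to 3830 in the cortices. The median was 1.09, 1.36 and 1.25 in the 3 animals.

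The cortical layer genes were split. Of 13 measured, 6 were lower in hippocampus, 2 were higher and the median was -0.29. The share called was 61.5%, against 14.4% of all tested probe sets. Tbr1, which specifies corticothalamic neurons, read 458, 362 and 376 in hippocampus and 1172, 1086 and 1367 in cortex (3.03-fold lower). Ccn2, a marker of layer 6b (-0.86), Rprm (-0.76), Id2 (-0.59) and Cux1, of upper layers (-0.39), were lower along with Mef2c. The 2 that were higher, Neurod6 and Crym, are also expressed by hippocampal pyramidal cells: Crym, which encodes the thyroid hormone-binding mu-crystallin, read 646, 516 and 525 in hippocampus and 216, 134 and 158 in cortex. The lower count was 3 without animal 3363, 3 without 3389 and 3 without 3403. Summed signals were 4250 to 4890 in hippocampus and 5430 to 6210 in cortex.

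Markers of adjoining tissue that a dissection could include were examined next. For striatum 1 of 5 genes was lower, Penk, the enkephalin precursor, at 339, 314 and 320 in hippocampus and 560, 549 and 565 in cortex (1.72-fold). The striatal share called was 20%, near the 14.4% of all tested probe sets. The striatal median was -0.45, and the summed signal was 787 to 1000 against 1170 to 1340. Penk made up most of that gap. For thalamus and habenula 2 of 8 were higher and 2 lower, 50% against 14.4% of all tested probe sets: Calb2 (1.40) and the kinase gene Prkcd (0.78) against the receptor-modifying gene Ramp3 (-1.39) and the nuclear receptor gene Rora (-0.90). Ramp3 did not pass without animal 3389 (adjusted p = 0.0523), and Rora and Prkcd did not without 3403 (0.0627 and 0.0675). The thalamic sums did not overlap either, at 1300 to 1450 in hippocampus and 1060 to 1090 in cortex. Most of that gap came from Calb2, at 479, 443 and 509 against 221, 166 and 160, which is also in the interneuron list below. For cerebellum 0 of 10 were higher and 3 were lower, Car8 (-0.96), Cbln1 (-0.45) and Pvalb (-0.40), 30% against 14.4%. Without animal 3403 the lower count was 0. The cerebellar sums also did not overlap, at 1240 to 1360 in hippocampus and 1550 to 1640 in cortex. Most of that gap came from Pvalb, at 809, 690 and 791 against 917, 1008 and 1099, which is also in the interneuron list. Gabra6, the defining GABA receptor subunit of cerebellar granule cells, was at or under 13.3 on all 6 arrays on the probe set that reads 2437 ± 159 (SD, n = 3) in KO cerebellum.

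Of 6 choroid plexus markers 0 passed in either direction, and the median was 0.68. Ttr, the transthyretin made by choroid plexus, read 341, 1228 and 1907 in hippocampus and 80.3, 524 and 333 in cortex (log2 1.95, adjusted p = 0.146), and Kl, the anti-ageing hormone klotho, read 92.6, 111 and 122 against 4.87, 33.2 and 39.9 (2.21, adjusted p = 0.059). Both were higher in hippocampus in each animal, and animal 3363 had the least Ttr in either region. Folr1, a folate receptor gene, had 1.15 (adjusted p = 0.142), and Igfbp2 (0.22), Igf2 (0.10) and Cox8b (-0.21) lay closer to 0. The summed choroid plexus signal was 1310 to 4670 in hippocampus and 1270 to 2500 in cortex. The summed meningeal and fibroblast signal was 2210 to 3750 against 3600 to 4960. The direction of that sum is set by its member Ptgds, at 695, 1052 and 1816 in hippocampus against 3743, 2540 and 2462 in cortex. In that list 50% of genes were called, against 14.4% of all tested probe sets. Of the 8 genes of that list, the matrix proteoglycan genes Dcn (427, 596 and 687 against 268, 249 and 237, log2 1.16) and Lum (1.31) rose, and Ptgds, the prostaglandin D synthase of leptomeninges and oligodendrocytes (-1.38), and Fmod (-1.44) fell. Further Ptgds probe sets had -1.002 and, not passing, -0.36 (adjusted p = 0.394). Ptgds was -0.86 without 3363 and -1.85 without 3403, and did not pass on the 6 KO arrays alone (adjusted p = 0.0774) or without the filter (0.0523). Fmod in hippocampus was 7.52, 18.5 and 77.9 and overlapped cortex, and it did not pass without 3363 (-0.73, adjusted p = 0.346) or 3389 (adjusted p = 0.213). The red blood cell genes Hba-a1 (-0.03) and Alas2 (0.26) did not pass. The part of adjoining tissue in the results was not tested.

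**Figure D2:**
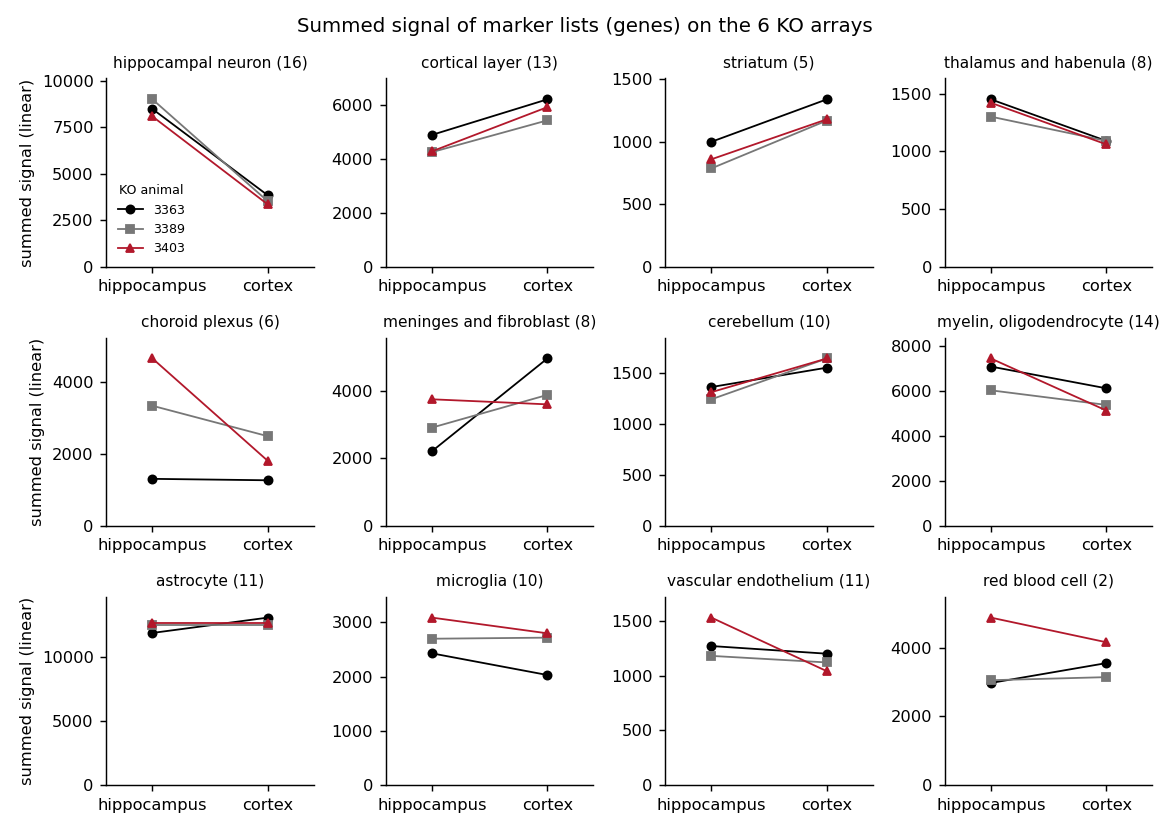
Summed linear signal of 12 marker lists on the 6 KO arrays, with the number of genes in parentheses and lines joining hippocampus and cortex of 1 animal. The hippocampal neuron sums are 8070 to 8990 against 3340 to 3830, while choroid plexus, meningeal and red blood cell sums overlap between the regions. The gaps in the striatal, thalamic, cerebellar and meningeal sums come largely from Penk, Calb2, Pvalb and Ptgds, in that order.

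Of 14 myelin and mature oligodendrocyte genes, 5 rose and 0 fell in hippocampus, and all 14 were above 0 with a median of 0.40. The share called was 35.7%, against 14.4% of all tested probe sets. Those that rose were Nkx6-2, an oligodendrocyte transcription factor (1.12), the myelin protein genes Mog (0.71), Mal (0.61) and Cldn11 (0.43), and Car2, carbonic anhydrase 2 (0.32). Mog read 233, 121 and 168 in hippocampus and 145, 105 and 71.6 in cortex, so the regions overlapped although each animal had more in hippocampus. The main structural genes Mbp (0.27) and Mobp (0.24) did not pass. The count depended on the animals: 2 without 3363, 2 without 3389 and 0 without 3403, whose own median of 0.75 was above those of 3363 (0.21) and 3389 (0.24). Without 3403, Mog, Mal, Cldn11 and Nkx6-2 had adjusted p of 0.192 to 0.375. Without the animal block 2 rose. The summed myelin signal was 6040 to 7460 in hippocampus and 5140 to 6130 in cortex.

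Among 11 astrocyte genes, 3 rose and 2 fell, 45.5% against 14.4% of all tested probe sets. Gfap, the intermediate filament of astrocytes, read 395, 785 and 654 in hippocampus and 222, 341 and 312 in cortex, 2.05-fold higher (1.03 ± 0.18, adjusted p = 0.00147), with another probe set at 0.65 (adjusted p = 0.081). Aqp4, the water channel of astrocyte end feet, read 383, 768 and 893 against 250.3, 398 and 482 (0.82). In both genes animal 3363 had the least in either region. S100b rose by 0.44, and the glutamine synthetase gene Glul (-0.66) and the lipoprotein gene Apoe (-0.30) fell. Another Glul probe set had the opposite sign and did not pass (0.11, adjusted p = 0.738). Aqp4 did not pass without 3389 (adjusted p = 0.069), Glul not without 3363 (0.0552) or 3389 (0.0504), and S100b not without 3363 (0.173) or 3403 (0.338). Without the block 1 astrocyte gene rose and 1 fell. Of 10 microglial genes 0 passed in either direction (median 0.11), and the one with the lowest p was the fractalkine receptor gene Cx3cr1, at 192, 196 and 193 against 153, 129.5 and 146 (0.44, adjusted p = 0.136). Of 11 endothelial genes only Tie1, an angiopoietin co-receptor, rose (0.96), which is 9.09% of the list. Tie1 did not pass without 3389 (0.105) or 3403 (0.340). The endothelial median was 0.42, and 0.17 without 3403. Summed endothelial signals overlapped, at 1180 to 1530 in hippocampus and 1040 to 1200 in cortex.

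Of 21 interneuron and neuropeptide genes, 5 fell and 2 rose, 33.3% against 14.4% of all tested probe sets, with a median of -0.25. Those that fell were Vip (-1.22), Penk (-0.78), Npy (-0.58), Reln, the secreted glycoprotein of layer 1 and of interneurons (-0.56), and Pvalb (-0.40). Vip, the vasoactive intestinal peptide of a class of disinhibitory interneurons, read 59.9, 38.7 and 21.7 in hippocampus and 72.5, 84.9 and 103 in cortex. The regions did not overlap, but the gap in animal 3363 was small, and Vip did not pass without 3389 (adjusted p = 0.0849) or 3403 (0.271). Calb2, the calcium buffer calretinin, which mossy cells of the mouse dentate hilus also contain, went the other way, at 479, 443 and 509 against 221, 166 and 160 (2.64-fold, 1.40 ± 0.11, adjusted p = 3.07e-06). Nos1, neuronal nitric oxide synthase, rose by 0.97, though not without 3363, 3389 or 3403 (adjusted p = 0.0584, 0.118 and 0.276). Gad1 and Gad2, the enzymes that make GABA, did not pass (-0.11 and -0.07). The counts of rising and falling genes were 2 and 3 without 3363, 1 and 1 without 3389, and 1 and 3 without 3403, so the balance of 5 to 2 did not hold without 3389. Without the filter they were 1 and 2.

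Of 7 genes of GABA synthesis, transport and breakdown, the pathway of the deleted gene, 2 passed (28.6%, against 14.4% of all tested probe sets): Aldh9a1, which can make GABA from putrescine, rose by 0.49 and Glul fell. Aldh9a1 passed narrowly (adjusted p = 0.049) and not without 3363, 3389 or 3403 (0.158 to 0.220), and without the block neither passed. Among 9 GABA receptor genes, 1 passed (11.1%). Gabrd, the delta subunit of extrasynaptic GABA-A receptors that respond to ambient GABA, read 22.2, 22.7 and 30.2 in hippocampus and 83.0, 118 and 109 in cortex, 4.13-fold lower (-2.05 ± 0.24, adjusted p = 8.10e-05). Every cortical signal was above every hippocampal one, and the call held without any 1 animal. Gabra2 (1.02, adjusted p = 0.109) and Gabra3 (-0.72, adjusted p = 0.201) had the next largest differences and did not pass.

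Of 13 glutamate receptor genes, 1 rose and 3 fell, 30.8% against 14.4% of all tested probe sets. Gria1, an AMPA receptor subunit, read 1502, 1609 and 1581 in hippocampus and 626, 675 and 584 in cortex, 2.49-fold higher (1.32 ± 0.12, adjusted p = 1.03e-05), and its other probe set rose by 1.22. The animals differed little within a region. Grm8, a presynaptic metabotropic receptor, read 54.2, 42.8 and 47.7 against 106, 79.4 and 130.2 (-1.10). The AMPA subunit gene Gria3 (-0.76) and the kainate subunit gene Grik1 (-0.75) also fell. Gria3 did not pass without 3389 (adjusted p = 0.125) or 3403 (0.184), and Grik1 did not without 3363, 3389 or 3403 (0.0949 to 0.277). The NMDA subunit gene Grin2a had a difference of 1.21 and did not pass (adjusted p = 0.105). Of 15 genes for monoamine, acetylcholine, opioid and cannabinoid receptors, Adra2c, an inhibitory adrenergic receptor, rose (195, 230.2 and 192 against 116, 141 and 105, log2 0.78) and the others did not pass. The share called in that list was 6.67%.

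Potassium, sodium and calcium channel genes differed in both directions. The list is mainly of voltage-gated channels, with other types such as Kcnj9 and Kcnk2 and auxiliary subunits such as Cacng2. Of 28, 5 rose and 7 fell, 42.9% against 14.4% of all tested probe sets, with a median of -0.02. Kcnab2, a cytoplasmic subunit of Shaker channels, read 534, 419 and 520.2 in hippocampus and 275, 198 and 205 in cortex (1.13, its other probe set 1.004). Kcnab1 (0.83, its other probe set -0.21 and not passing), Kcnd2, the A-type channel of dendrites (0.71), Cacnb2 (0.67) and Hcn2 (0.58) rose as well. Kcnj9, a subunit of G-protein-gated inward rectifiers, read 260.3, 307 and 289 against 848, 621 and 553 (-1.22, its other probe set -1.86), and Scn1a, the sodium channel prominent in parvalbumin interneurons, read 504, 323 and 310 against 678, 717 and 801 (-0.98, its other probe set -1.02). With Kcnh1 and Cacna1g, the others that fell were the AMPA receptor auxiliary gene Cacng2 (-0.60), Kcnma1 (-0.50) and Kcnk2 (-0.45). The counts were 2 and 4 without 3363, 1 and 5 without 3389, and 2 and 6 without 3403.

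Calcium signalling and kinase genes had 53.1% of their members called, against 14.4% of all tested probe sets. This was the highest share of the 27 lists after the hippocampal and cortical ones: 9 of 32 rose and 8 fell, with a median of 0.15. Hpca, which encodes the calcium sensor hippocalcin, read 3197, 3254 and 3026 in hippocampus and 1404, 1347 and 1262 in cortex (2.36-fold, 1.24 ± 0.10, adjusted p = 4.47e-06). Its relative Hpcal1 went the other way (-0.60, adjusted p = 0.000195), at 474, 416 and 439 against 724, 636 and 658. Close family members thus differed in opposite directions, and protein kinase C genes did too: Prkca (1.001), Prkce (0.79) and Prkcd (0.78) rose, while Prkcb (-0.49) and Prkcz (-0.37) fell on their brightest probe sets, although a further Prkcb probe set had 0.13 and further Prkcz ones 0.34 and 0.12. Ptk2b, a calcium-activated tyrosine kinase, read 1419, 1030 and 1053 against 548, 436 and 407 (1.33). Camk2d, a calmodulin-dependent kinase subunit, read 24.0, 19.3 and 23.6 against 85.7, 40.4 and 64.4 (-1.45), whereas Camk2a (0.96, adjusted p = 0.0904) and Camk2b (0.26) did not pass. Rgs4, an inhibitor of G-protein signalling, read 130, 102 and 113 against 251, 273 and 360 (-1.35), and Rgs7 fell as Rgs14 rose. The counts were 8 and 5 without 3363, 8 and 4 without 3389, and 7 and 6 without 3403.

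**Figure D3:**
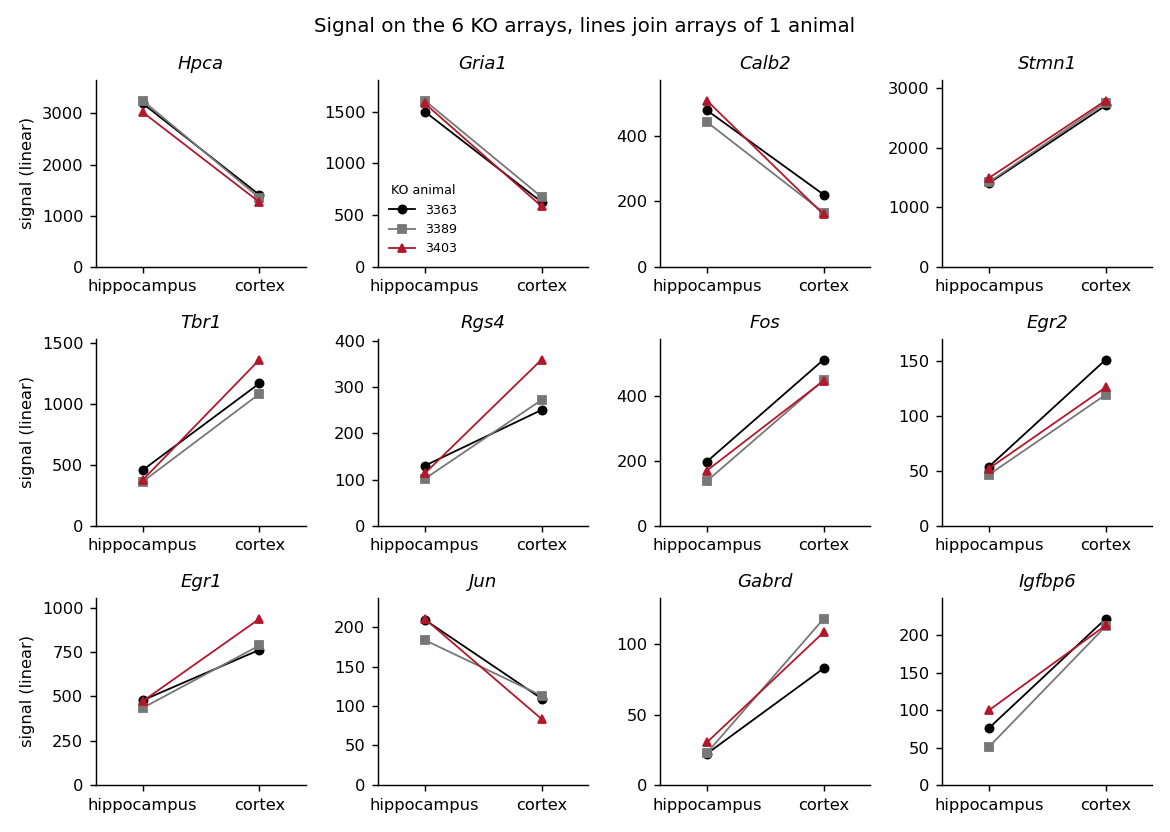
Linear signal of 12 genes on the 6 KO arrays, with lines joining hippocampus and cortex of 1 animal. Hippocampal and cortical points do not overlap in any panel; Hpca, Gria1, Calb2 and Jun slope down towards cortex and the other 8 genes slope up.

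Of 34 axon guidance genes, receptors and ligands, 10 rose and 4 fell, with a median of 0.29. Over all tested probe sets 6.9% were higher and 7.53% lower. Nrp1 led those that rose, on its brightest probe set at 474, 584 and 444 against 153, 113 and 131 (1.92). Robo1, the Slit receptor (1.47), Sema3c (1.30), the ephrin receptor genes Epha6 (1.29) and Epha7 (0.94), Sema5a (1.25), the ephrin gene Efnb3 (0.97), the semaphorin receptor gene Plxna1 (0.95), Sema6b (0.61) and Crmp1 (0.49) followed. Epha6 was even across animals, at 134, 130.4 and 134 in hippocampus and 54.4, 57.2 and 51.2 in cortex. Sema3a, a repulsive ligand of Nrp1, went the other way (7.35, 5.42 and 11.1 against 20.4, 63.5 and 53.8, log2 -2.05), as did Ephb3 (-1.35), Ephb6 (-0.89, its other probe set 0.19 and not passing) and Plxna2 (-0.68). Receptor and ligand were thus on opposite sides in every animal for Nrp1 and Sema3a. Robo1 did not pass without 3363 (adjusted p = 0.117) or 3389 (0.0857), Ephb3 not without 3363 (0.128) or 3403 (0.0632), and Sema3a not without 3389 (0.0598). The counts were 6 and 3 without 3363, 8 and 3 without 3389, and 6 and 3 without 3403.

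Adhesion and developmental signalling lists were closer to the background of 14.4%. Of 19 cadherin and adhesion genes, Cdh11 rose (0.79) and the protocadherin gene Pcdh7 fell, at 14.0, 11.9 and 22.7 in hippocampus and 60.6, 48.1 and 60.6 in cortex (-1.85). Cdh11 did not pass without 3363 (adjusted p = 0.318) or 3389 (0.211). Of 32 Wnt, BMP and retinoid genes, Crym, the frizzled receptor gene Fzd4 (0.53) and Dkk3 (0.35) rose, and the retinol carrier gene Rbp4 (-0.92) and Id2 (-0.59) fell. Fzd4 did not pass without any of the KO animals (adjusted p = 0.0716 to 0.347), and Rbp4 did not without 3363 (0.0545) or 3389 (0.0854). Of 29 growth factor and receptor genes, 5 rose and 1 fell (20.7%), with a median of 0.27. Fgfr1, a fibroblast growth factor receptor, read 246, 293 and 297 against 118, 118 and 126 (1.20 ± 0.11, adjusted p = 1.13e-05), and Fgf13, an intracellular regulator of sodium channels, read 378, 348 and 353 against 164, 166 and 181 (1.08). Tgfa (0.97), Igf1 (0.53) and Cntfr (1.64) rose too, Cntfr not without 3363 (adjusted p = 0.0523), 3389 (0.179) or 3403 (0.102). Igfbp6, a binding protein that prefers IGF2, was lower (75.9, 50.8 and 99.8 against 222, 212 and 213, log2 -1.57), and it was the only one of the list that fell.

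In the neurogenesis and cell cycle list, 1 of 12 genes rose and 1 fell, 16.7% and near the 14.4% of all tested probe sets. Stmn1, the microtubule-destabilising protein stathmin, was nearly identical among animals, at 1402, 1419 and 1491 in hippocampus and 2710, 2760 and 2794 in cortex (-0.94 ± 0.09, adjusted p = 1.35e-05). Ccnd1, cyclin D1, rose by 0.58, but not without 3363, 3389 or 3403 (adjusted p = 0.0539 to 0.124). Dcx, a marker of immature neurons, did not pass (-0.28, adjusted p = 0.238), and neither did the proliferation gene Mki67 (-0.18).

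Immediate early genes, which neurons transcribe within minutes of activity, were measured for 23 members. Of these 7 fell and 2 rose, 39.1% against 14.4% of all tested probe sets, with a median of -0.23. Fos, a subunit of the AP-1 transcription factor, read 198, 138 and 170.2 in hippocampus and 513, 450 and 448 in cortex, 2.81-fold lower (-1.49 ± 0.35, adjusted p = 0.0105). The zinc finger gene Egr2 read 53.9, 46.6 and 52.2 against 152, 119.7 and 126 (-1.38), and its relative Egr1 read 477, 435 and 473 against 763, 787 and 938 (-0.84). In these genes each hippocampal signal was below each cortical one. Dusp1, a phosphatase of MAP kinases (-0.95), the clock gene Per1 (-0.81), Ier2 (-0.62) and the antiproliferative gene Btg2 (-0.50) fell as well, and in Dusp1 the regions overlapped: 407, 238 and 257 in hippocampus, 845, 546 and 387 in cortex. Jun, the partner of Fos in AP-1, was higher in hippocampus, at 210, 184 and 211 against 110, 113 and 83.6 (0.99 ± 0.16, adjusted p = 0.00082), and the kinase gene Sgk1 rose by 0.40. Bdnf (0.75), Nr4a1 (-0.79) and Homer1 (-0.57) did not pass. The counts of rising and falling genes were 1 and 3 without 3363, 1 and 2 without 3389, 1 and 5 without 3403, 1 and 4 without the animal block and 2 and 3 without the filter. Fos did not pass without 3389 (adjusted p = 0.067), Dusp1 not without 3363 (0.0563) or 3389 (0.131), and Per1 not without 3363 (0.140), while Egr2 and Jun passed without any 1 animal.

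Many activity-regulated promoters carry a cyclic AMP response element, to which the factor CREB binds. The full element TGACGTCA, which reads the same on both strands and contains the core TGACG on each, and the core alone were searched on both strands in the 250 bases before the start of each gene in the RefSeq promoter table (build GRCm38.p6). The full element was found in 508 of 32851 promoters (1.55%) and the core in 5836 (17.8%). By gene, counting a match in any of its promoters, the shares were 1.77% and 19.8% of 27025 genes, and the counts that follow are by gene. Of the 7 genes that fell, 5 had a promoter in the table, and 2 of these held the full element and 5 the core. Of the 2 that rose, 0 held the full element and 1 the core, and of 13 that did not pass, 0 and 7. The windows of Fos, Dusp1 and Btg2 are printed 5' to 3' as examples of genes that fell, from RefSeq, with each match in capitals.
Fos, chr12:85473640-85473889, plus strand: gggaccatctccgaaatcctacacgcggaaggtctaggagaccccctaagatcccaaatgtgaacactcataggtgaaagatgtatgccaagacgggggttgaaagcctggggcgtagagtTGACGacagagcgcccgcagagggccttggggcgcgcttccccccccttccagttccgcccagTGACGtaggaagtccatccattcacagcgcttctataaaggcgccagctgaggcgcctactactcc
Dusp1, chr17:26508473-26508722, minus strand: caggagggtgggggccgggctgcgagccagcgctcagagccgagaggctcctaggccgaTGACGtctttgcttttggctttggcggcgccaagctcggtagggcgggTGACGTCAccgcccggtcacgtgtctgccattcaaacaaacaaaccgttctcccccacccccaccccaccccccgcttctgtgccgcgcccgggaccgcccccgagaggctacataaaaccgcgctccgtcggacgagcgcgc
Btg2, chr1:134079156-134079405, minus strand: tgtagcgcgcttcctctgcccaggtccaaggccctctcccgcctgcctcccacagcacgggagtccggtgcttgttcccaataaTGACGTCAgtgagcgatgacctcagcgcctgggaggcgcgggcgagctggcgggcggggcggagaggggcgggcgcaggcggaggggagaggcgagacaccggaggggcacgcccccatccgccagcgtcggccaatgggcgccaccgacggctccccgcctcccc
In these windows Dusp1 and Btg2 hold the full element, and Dusp1 a further core. Fos holds the core in 2 places and no full element. A match is a description of the letters, not of a bound site.

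Genes that respond to glucocorticoids and to amino acid shortage were examined as stress lists. Of 13 glucocorticoid-responsive genes, 2 rose and 4 fell, 46.2% against 14.4% of all tested probe sets. Fkbp5, a co-chaperone of the receptor, rose by 0.57 and Sgk1 by 0.40, and Tsc22d3, the glucocorticoid-induced leucine zipper gene (-1.11), Dusp1, Per1 and Glul, the last on 1 of its 2 probe sets, fell. Tsc22d3 read 15.8, 16.4 and 25.9 in hippocampus and 49.6, 49.2 and 27.9 in cortex and was close between regions in animal 3403. It did not pass without 3363 (adjusted p = 0.215) or 3389 (0.203), and the counts were 0 and 0 without 3363, 0 and 1 without 3389, 0 and 4 without 3403, and 0 and 2 without the block. Of 15 amino acid stress genes, Slc7a5 and Slc3a2, which encode the light and heavy chains of a large neutral amino acid transporter, rose by 0.58 and 0.38, 13.3% of the list and near the 14.4% of all tested probe sets. Slc3a2 read 1268, 1379 and 1637 against 1008, 1157 and 1113 and did not pass without 3363 (adjusted p = 0.0685) or 3403 (0.169), and Slc7a5 did not without 3389 (0.0614) or 3403 (0.134). Atf5, a transcription factor of that response, read 217, 430.1 and 260 against 107, 209.5 and 178. It was higher in hippocampus in 3 of 3 animals and did not pass (0.87, adjusted p = 0.0778).

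**Figure D4:**
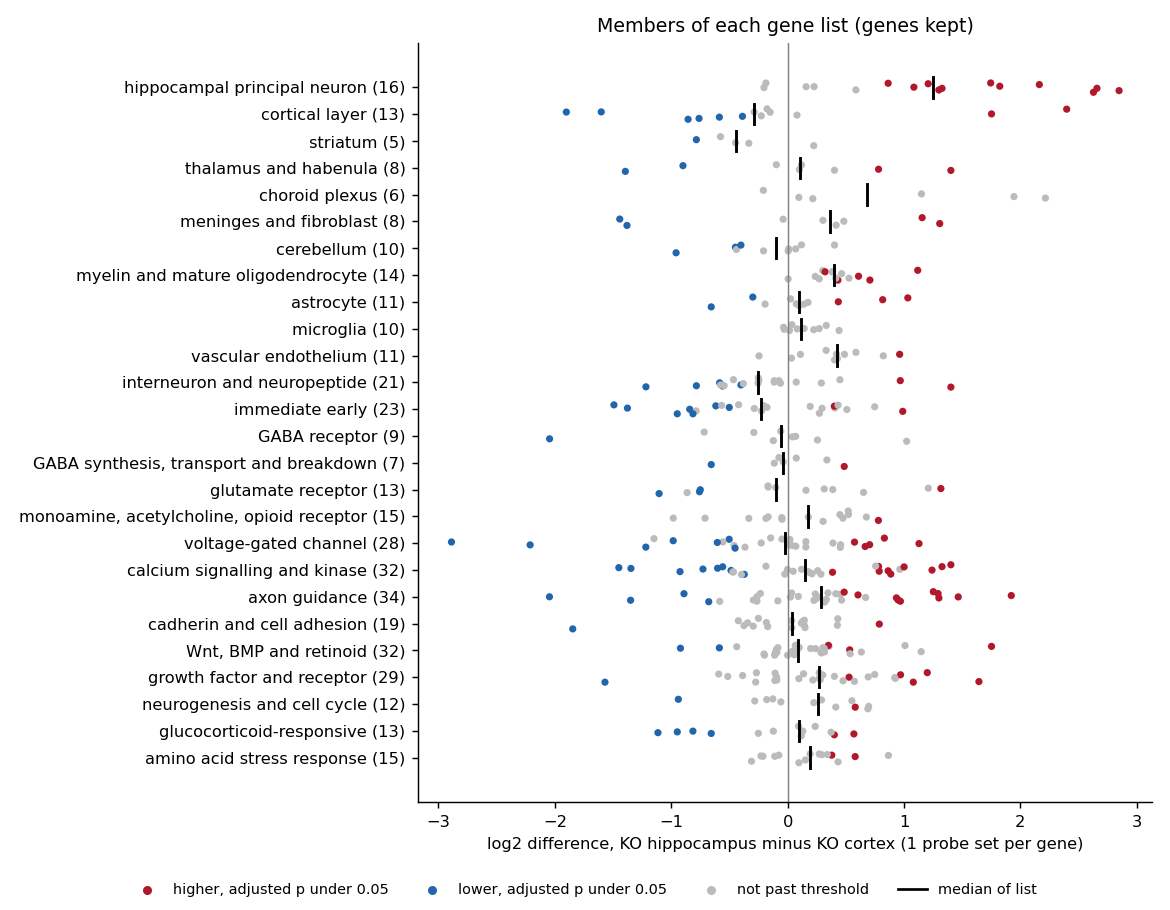
Log2 difference between KO hippocampus and KO cortex for each measured member of 26 gene lists, 1 probe set per gene, with the number of genes in parentheses and bars at the list medians. Red points are higher and blue points lower at an adjusted p under 0.05. The hippocampal principal neuron list has its median at 1.25, and most others lie near 0 with members on both sides.

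The same contrast in WT animals was used to ask whether the regional differences are particular to the KO brain. In WT, 625 probe sets were higher in hippocampus (7.46%) and 575 lower (6.86%), together 1200 (14.3%), and 627 were called in the same direction in both genotypes, 51.9% of the KO calls and 52.2% of the WT calls. The sign in WT matched for 1135 of the 1209 KO calls (93.9%). Over the 8382 probe sets the KO and WT differences, which come from separate arrays with the same trimmed mean, correlated at r of 0.656 (Spearman rho 0.565). Median differences in WT were close to those in KO for hippocampal principal neuron genes (1.18), cortical layer genes (-0.39) and immediate early genes (-0.24), and further apart for myelin genes (0.25), thalamus and habenula (0.49) and choroid plexus (1.07). They had the opposite sign for glutamate receptor (0.16 in WT against -0.10 in KO) and calcium signalling genes (-0.08 against 0.15). The same held for cadherin and adhesion (-0.12 against 0.04) and amino acid stress genes (-0.03 against 0.19). These differences between medians were not tested. Rasd1, Dsp, Nnat, Mef2c, Calb2, Gria1, Stmn1 and Gabrd differed in WT in the same direction (2.75, 2.83, 2.89, -2.48, 1.41, 1.497, -0.94 and -1.62), Mef2c on its brightest probe set.

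The test of the difference between genotypes found 0 probe sets at an adjusted p under 0.05 by limma, with 719 at an unadjusted p under 0.05, where 5% of those tested is 419.1, and a lowest adjusted p of 0.315. So no gene was shown to differ in its regional contrast, including those that passed in KO only: Cacna1g (-2.21 in KO, -0.65 in WT), Clasrp (-2.12 and -0.43) and Irs2 (-2.11 and 0.39). The 6 genes with the lowest p were Zfp276, Septin4, Laptm4a, Il15ra, Neurod6 and Msl2, and none of them passed (adjusted p = 0.315 for each). Neurod6 was higher in hippocampus by 2.62, 2.46 and 2.12 in the KO animals and by 1.11, 1.23 and 1.43 in WT animals 3396, 3405 and 3406. The lysosomal gene Laptm4a had 0.58, 0.37 and 0.07 in KO and 1.16, 1.18 and 1.12 in WT. The Neurod6 difference was larger in each KO animal than in any WT animal, and the Laptm4a difference smaller. Naming genes by the lowest p of this contrast favours such a separation, so it is no separate support. Across all tested probe sets 4 genes passed in both genotypes with opposite signs: Chrng (1.52 in KO and -1.41 in WT), Stat6 (-1.03 and 1.02), Zfp276 (-1.30 and 1.30) and Il15ra (-1.27 and 1.32). Zfp276 and Il15ra are also among the 6 genes of lowest p.

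**Figure D5:**
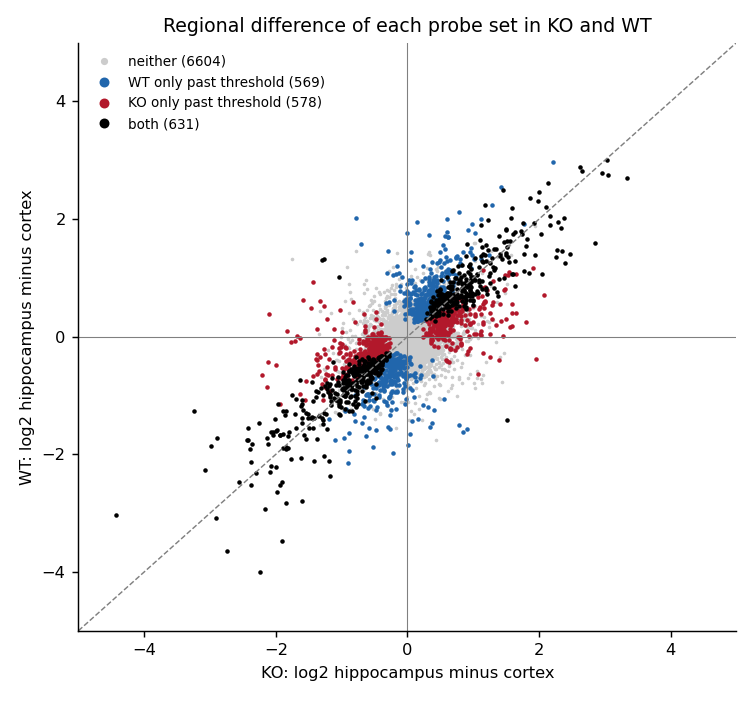
Log2 difference between hippocampus and cortex of each of the 8382 tested probe sets in KO (x axis) and WT (y axis), with the dashed line at equality. Black points, 631, passed in both genotypes, and 627 of them have the same sign in both. In KO only 578 passed and in WT only 569.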

How the data were processed

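Total RNA from 3 regions of 6 animals was measured on 18 arrays. The deposited values are linear intensities per probe set, and the labels as deposited do not state how the authors made them. In the values, each array has the same mean once 2% of probe sets are trimmed at each end. The array software and its version are not given in the sources used here. A floor of 9.46, the 20th percentile over the 18 arrays together, was applied before log2, and probe sets above the 40th percentile of their array on at least 3 of 18 arrays were kept. The 66 control probe sets were left out of the tests. Gene symbols came from the platform annotation: 10833 probe sets had 1 symbol, 396 several and 1193 none.

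limma 3.58.1 in R 4.3.3 fitted all 18 arrays with the animal as a block (8 residual degrees of freedom) and an intensity trend. Tests were two-sided, with Benjamini-Hochberg adjustment over 8382 probe sets. The pairing comes from the animal numbers in the titles. Residuals of hippocampus and cortex of 1 KO animal correlated at 0.092, 0.18 and 0.103, and the median over the 6 animals was 0.0973 against -0.0595 for different animals. The residuals were taken from group means. This centring pulls the value for different animals to the opposite sign, so that value is no independent baseline for the pairing. An exact sign-flip test over 3 pairs cannot go below p = 0.25. Nothing in the labels describes how the animals were bred or dissected. With the animal as a block, p-values measure the scatter of regional differences among these 6 animals, pooled over all regions and both genotypes. They do not measure the spread in level between animals.

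The 15 genes of largest difference per direction were named among called 1-symbol probe sets with the same sign in all animals and no overlap of regions. In each list up to 4 called genes, or the gene of lowest p, were named with alternatives, and the others in the text were chosen after their values were seen. For the genotype difference the 6 of lowest p were named. The comparison, lists and members were chosen with earlier results of these data known. Alternatives changed the normalization, floor, filter, trend, block, arrays fitted and animals. The fits were tested on simulated data.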

Additional observations from a re-analysis of the deposited data

Results flagged for a closer look

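Among the genes named and followed above, 3 had every KO animal differing between hippocampus and cortex in one direction and every WT animal in the other. The search did not cover all tested probe sets. All 3 had been named for a low p in the genotype difference. That choice favours opposite signs, so the signs are no separate support. The zinc finger gene Zfp276 was lower in hippocampus by -1.45, -1.04 and -1.40 (log2) in KO animals 3363, 3389 and 3403 and higher by 0.53, 2.12 and 1.24 in WT animals 3396, 3405 and 3406, a KO minus WT difference of -2.59. Il15ra, the interleukin 15 receptor subunit gene, had -0.83, -1.76 and -1.21 in KO and 0.85, 1.63 and 1.50 in WT, a difference of -2.59. The septin gene Septin4 had -1.78, -1.18 and -1.03 in KO and lay between 0.04 and 1 in WT, a difference of -1.94, with 1 WT animal close to 0. limma's test of the difference itself was not passed by any of the 3 (adjusted p = 0.315 for each).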

How the results depend on the processing

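The 578 higher and 631 lower calls ranged from 223 to 619 and from 293 to 676 with 1 animal left out, lowest without KO animal 3403 for both. On the 6 KO hippocampus and cortex arrays alone they were 260 and 317. Without the animal as a replicate block they were 507 and 578, with 1050 called in WT and 0 for the genotype difference. Under the other alternatives higher calls ranged from 445 (median scaling) to 601 and lower calls from 518 to 695. WT calls (1200) ranged from 525 to 1089 with 1 animal left out. Genotype calls ranged from 0 to 1 with 1 animal left out (Fmod, without 3403) and were 2 without the filter (Defb1 and Ifi207, with KO means of 8.79 or less).

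Of 91 called probe sets that were followed, 0 changed sign and 54 passed under every alternative in which they were tested. Some were removed by the filter at the 60th percentile, which was not counted as a loss. With some animal left out 35 did not pass, on the 6 KO arrays alone 23, and without the block 12: Fmod, Mog, Mal, Aqp4, Glul, S100b, Tie1, Dusp1, Aldh9a1, Gria3, Grik1 and Cdh11. Irs2 also did not pass without the filter. The number of animals, 3 a genotype, limits the precision, and low signals under the floor have no order.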
